A study of Mus musculus with 4 samples.

Results

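The pentose phosphate pathway genes examined here were G6pdx, H6pd, Pgls, Pgd, Rpe, Rpia, Tkt and Taldo1, 8 genes listed by name and matched exactly to the gene symbols of the deposited annotation. Of these, 7 had a probe set with a single symbol and were tested among 29432 genes. The probe set of Tkt is listed under 2 symbols, Tkt and Mir3076, because that microRNA gene lies inside Tkt, so it was not an exact match and is given apart. The samples were livers of untreated C57BL/6 mice aged 8 weeks, killed around midday and measured on Affymetrix MoGene 2.0 ST arrays. The groups were FF, the control, with 2 animals, and KO, a Gdown1 knockout, also with 2 animals. Polr2m is the gene of Gdown1, a protein that associates with RNA polymerase II. The comparison in the authors' deposited table is headed Alb-cre against f/f. Alb-cre is Cre recombinase driven by the albumin promoter, which is active in hepatocytes, and whole liver also holds cells in which that promoter is silent. No animals with Cre and intact Gdown1 were measured, so an effect of Cre cannot be told apart from one of the deletion.

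The pathway runs beside glycolysis in the cytosol and starts from glucose 6-phosphate. Its oxidative branch makes NADPH, which liver uses for lipid synthesis and for keeping glutathione reduced, and yields ribulose 5-phosphate. Its non-oxidative branch interconverts pentose phosphates with glycolytic sugar phosphates and so supplies ribose for nucleotides. The step catalysed by glucose 6-phosphate dehydrogenase, the product of G6pdx, is the committed and rate-limiting one.

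The array medians lay between 2.88 and 2.92 on the log2 scale, and Pearson's r across probe sets, which are not independent replicates, was 0.984 within FF, 0.986 within KO and 0.972 to 0.976 across the groups. Polr2m, the targeted gene, measured 7.35 and 7.38 in FF and 6.35 and 6.18 in KO, and its KO level was 46.6% of that in FF (limma adjusted p = 0.0215). The sources used here do not place its probes relative to the deletion, so this checks the labels only in part. Xist lay between 1.97 and 2.16 on all arrays, below 2.82, the level under which 95% of the 1127 olfactory receptor genes lay. That level serves below as a guide to background. Of 10 measured hepatocyte markers none was called by limma (3 at an unadjusted p under 0.05). By mean 0 of 10 were higher in KO, and their median log2 difference was -0.14. The largest falls were those of Tat, at -0.81 ± 0.18, and Pck1, at -0.80 ± 0.17. Alb lay between 12.74 and 12.86 on all arrays. The summed linear level of these markers was 34650 and 35260 in FF and 30180 and 30920 in KO. With 2 arrays a group, precision is limited throughout. The labels call the samples biological replicates.

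G6pdx was 4.81-fold higher in KO liver than in FF liver, and it was the 1 member of 7 that passed the test. On the log2 scale it measured 4.37 and 4.58 in FF, and 6.80 and 6.68 in KO. The groups were far apart: the gap between the lowest KO and the highest FF value was many times the gap between animals of a group, which was 0.21 in FF and 0.12 in KO. The log2 difference was 2.27 ± 0.13 (SE, n = 2 per group), with a 95% interval from 1.94 to 2.59 and a limma adjusted p of 0.00498. All 4 values stood above the background guide of 2.82. In the authors' deposited table G6pdx averaged 7.14 on the KO side and 5.06 on the FF side in log2 units, a signed fold change of 4.23. Each average lay above both array values of its group, so it is not their mean. How the authors' averages were made is not stated in the sources used here. Among all genes, 27 had a larger rise. With any single array left out the difference stayed between 2.16 and 2.37, but limma then called no gene at all, and with the replicate number as a block the adjusted p of G6pdx was 0.0610.

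G6pdx lies on chromosome X from 74409483 to 74428880 (GRCm38.p6). The window around its transcription start, chrX:74428831-74429130 on the minus strand, is shown because this gene carried the largest change of the pathway, and beside it the window of H6pd, chr4:150003187-150003486 on the minus strand, the gene of the other glucose 6-phosphate dehydrogenase, which was not called. Both are RefSeq sequences of GRCm38.p6, each 300 bases long, read 5′ to 3′. Capitals mark matches to the motifs listed after them.
G6pdx: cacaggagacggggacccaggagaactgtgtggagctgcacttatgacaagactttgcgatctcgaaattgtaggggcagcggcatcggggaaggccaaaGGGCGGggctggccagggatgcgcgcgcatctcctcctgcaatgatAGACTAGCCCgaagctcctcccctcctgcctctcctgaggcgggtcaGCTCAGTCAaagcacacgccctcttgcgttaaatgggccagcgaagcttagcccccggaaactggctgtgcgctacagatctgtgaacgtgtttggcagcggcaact
H6pd: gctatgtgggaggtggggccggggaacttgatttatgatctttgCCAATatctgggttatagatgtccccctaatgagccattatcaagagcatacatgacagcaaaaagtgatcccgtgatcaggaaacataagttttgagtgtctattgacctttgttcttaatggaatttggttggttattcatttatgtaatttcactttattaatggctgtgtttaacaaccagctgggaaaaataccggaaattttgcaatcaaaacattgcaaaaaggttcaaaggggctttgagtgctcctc

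The motifs searched on both strands were the GC box GGGCGG, the E-box CACGTG, the core of the antioxidant response element TGACNNNGC, the CCAAT box CCAAT, the TATA box TATAAA and the p53 decamer consensus, which makes up one side of a p53 site. In the G6pdx window a GC box began 150 bases before the start, a match to the p53 decamer 104 bases before it and a match to the antioxidant core, on the reverse strand, 57 bases before it. No matches overlapped there. Of 32851 windows of this length, 35.7% held a GC box, 8.36% the p53 decamer and 12.4% the antioxidant core, so each of these matches is common among promoters. The H6pd window held a CCAAT box, found in 37.4% of windows, and none of the other letters. All 8 genes had a window in the table, 9 windows in all since Pgd has 2. The antioxidant core occurred in 2 of the 9, those of G6pdx and of the second start of Pgd, and the p53 decamer in 1, that of G6pdx. A GC box was found in 7 of the 9, and the E-box and the TATA box in 0 of 9, against 7.15% and 13.6% of all windows. The guanine and cytosine content was 60.0% in the G6pdx window and 39.3% in that of H6pd, against a median of 52.7%. The G6pdx window sits at the outer end of its gene, whereas that of H6pd belongs to a start inside the gene, whose outer end is at 150009023, so these windows are not alike in position. A match of letters does not show that a factor binds there.

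**Figure D1:**
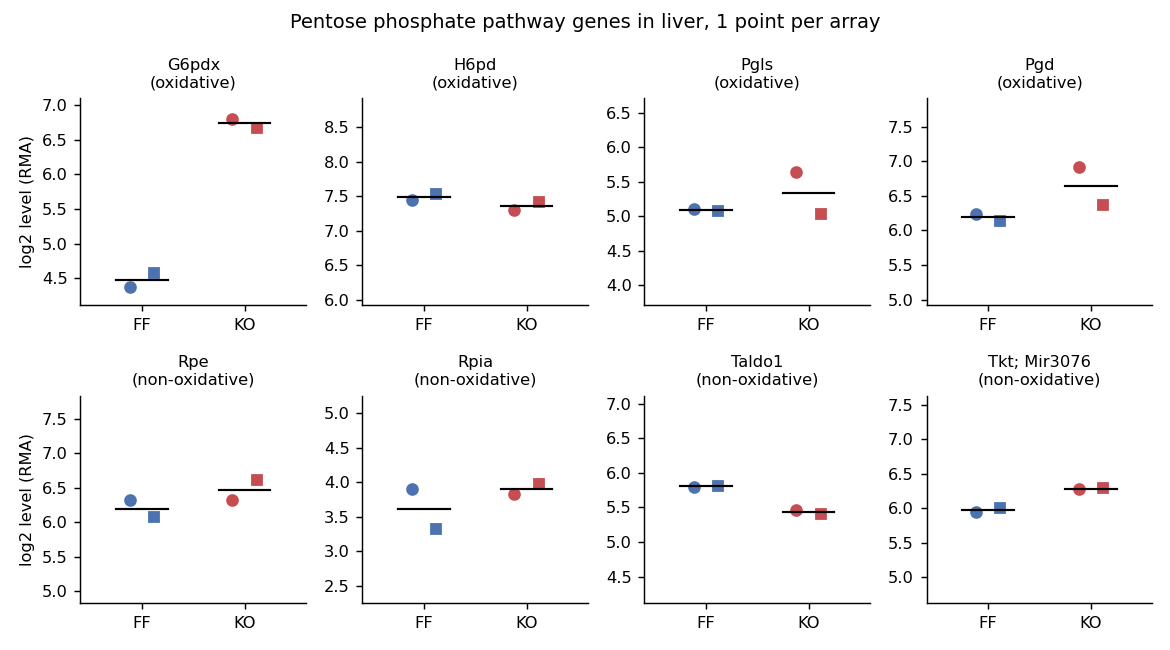
Log2 level (RMA) of each pentose phosphate gene on the 2 FF (blue) and 2 KO (red) arrays, with circles for replicate 1, squares for replicate 2 and a line at each group's mean. Every panel spans the same range of log2 units around its own centre. G6pdx moved from 4.37 and 4.58 to 6.80 and 6.68, while the largest difference between group means among the others was 0.46.

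The other genes of the oxidative branch moved little or unevenly. H6pd, on chromosome 4 from 149979474 to 150009023, encodes the hexose 6-phosphate dehydrogenase of the endoplasmic reticulum, which makes NADPH there. The log2 levels of H6pd were 7.45 and 7.53 in FF and 7.30 and 7.41 in KO. The KO values lay just below the FF values, with a log2 difference of -0.13 ± 0.12 (SE), an interval from -0.43 to 0.16 and a limma adjusted p of 0.643. The authors' deposited table gave it a larger fall, from 7.32 to 6.80, or a signed fold of -1.44.

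Pgls, on chromosome 8 from 71592184 to 71596267, encodes 6-phosphogluconolactonase, the enzyme of the next step. Its log2 values were 5.11 and 5.07 in FF against 5.64 and 5.03 in KO. The KO animals fell on either side of the FF animals, so the groups overlapped. The mean log2 difference of 0.25 ± 0.21 (SE) came from KO array 1, and without that array it was -0.061. The authors' deposited table gave -1.20 as its signed fold, the opposite direction. A further probe set is listed under 2 symbols, Fam129c and Pgls, and was not used for this gene. It measured 3.18 and 2.91 in FF and 2.93 and 2.68 in KO, near the background guide, a log2 difference of -0.24.

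Pgd, on chromosome 4 from 149149991 to 149166705, encodes 6-phosphogluconate dehydrogenase, which makes the second NADPH of the branch. On the FF arrays its log2 level was 6.24 and 6.14, and on the KO arrays 6.92 and 6.37. Both KO values were above both FF values, but the KO animals differed by 0.55, more than the group means did. The log2 difference of 0.46 ± 0.20 (SE), with an interval from -0.03 to 0.95, did not pass (limma adjusted p = 0.322), and it was 0.18 without KO array 1 and 0.73 without KO array 2. Pgd and H6pd lie 812768 bases apart on the same chromosome.

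In the non-oxidative branch none of the 3 tested genes was called. Rpe, on chromosome 1 from 66700797 to 66719805, encodes ribulose 5-phosphate epimerase. The Rpe level was 6.32 and 6.08 in FF and 6.33 and 6.61 in KO. The lower KO value was almost the same as the higher FF value, and the difference of 0.27 ± 0.16 (SE) had a limma adjusted p of 0.463.

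Rpia, on chromosome 6 from 70765720 to 70792175, encodes the isomerase that turns ribulose 5-phosphate into ribose 5-phosphate. Levels of Rpia were 3.89 and 3.32 in FF and 3.83 and 3.97 in KO, so the groups overlapped. The difference of 0.29 ± 0.21 (SE) rested on FF array 2, and it was 0.0036 without that array.

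Taldo1, on chromosome 7 from 141392160 to 141402976, encodes transaldolase, which links the pathway back to glycolysis. In log2 units it measured 5.79 and 5.81 in FF and 5.46 and 5.40 in KO. Animals of a group differed by at most 0.06, and KO lay wholly below FF. The log2 difference was -0.37 ± 0.11 (SE), 77.3% of the FF level, with an interval from -0.65 to -0.09. At an unadjusted limma p of 0.0175 it did not pass after adjustment over all genes (adjusted p = 0.182). The authors' deposited table had the same direction, with a signed fold of -1.32.

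The probe set listed as Tkt; Mir3076 lies in the region of Tkt, which encodes transketolase and spans chromosome 14 from 30549131 to 30574724. Its log2 level was 5.95 and 6.01 in FF and 6.28 and 6.29 in KO. Both KO values were above both FF values and nearly equal to each other, with a log2 difference of 0.31 ± 0.11 (SE) and an interval from 0.03 to 0.59. Added to the genes tested it did not pass (limma adjusted p = 0.253), and the authors' deposited table gave the opposite direction, a signed fold of -1.16. Transketolase transcripts and those of the microRNA gene inside it cannot be told apart in this probe set.

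**Figure D2:**
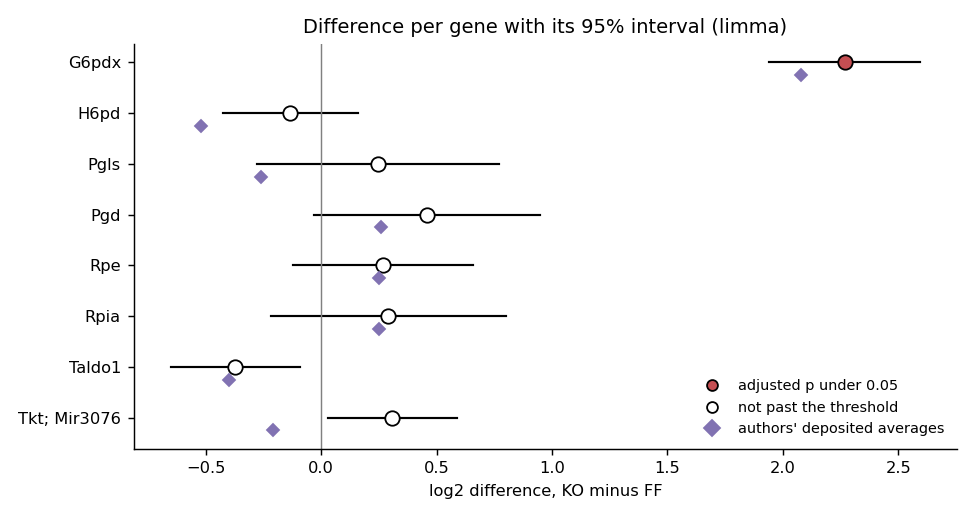
Log2 difference between KO and FF for each gene, with the 95% interval from limma as a line. A red circle passed an adjusted p of 0.05 and a white one did not, and purple diamonds are the differences between the authors' deposited averages. G6pdx stands at 2.27, the diamonds of Pgls and Tkt; Mir3076 lie on the other side of 0 from their circles.

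Over the 7 tested members, 1 rose, 0 fell and 6 did not pass. Across all genes 1.77% passed, 0.996% higher and 0.778% lower in KO. At an unadjusted limma p under 0.05 there were 2 members, G6pdx and Taldo1, against 17.0% of all genes. KO and FF arrays did not overlap for 5 members, 3 higher and 2 lower in KO, and this was the case for 46.6% of all genes, so that count says little about the pathway. The members' median log2 difference was 0.27 beside -0.02 over all genes, of which the middle 80% lay between -0.31 and 0.36. Of the 6 members that did not pass, 4 lay within that range, and Pgd above and Taldo1 below it lay just outside. The intervals of these 6 rest on the array values alone and are a guide, not a firm bound, to how far each gene moved. In the authors' deposited table H6pd differed by -0.52, beyond the lower end of its interval at -0.43. The authors' differences for the other members that did not pass lay inside their intervals. The highest upper end among these intervals was 0.95 on the log2 scale, or 1.93-fold, for Pgd. None of these intervals thus included the 3.84-fold lower end of the G6pdx interval. The smallest log2 change called for any gene was 0.72, so smaller changes were not resolved. Larger ones could also go uncalled where arrays of a group differed, as for Nqo1 at 1.56 ± 0.29 (limma adjusted p = 0.0720).

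The branches were set side by side by averaging, on each array, the log2 difference of their genes from the FF mean. The oxidative branch of 4 genes stood at -0.02 and 0.02 on the FF arrays and at 0.86 and 0.56 on the KO arrays. The non-oxidative branch of 3 genes stood at 0.13 and -0.13 in FF and at 0.0004 and 0.12 in KO. On this scale both KO arrays were above both FF arrays in the oxidative branch, while in the non-oxidative branch the groups overlapped. The oxidative branch thus exceeded the other by 0.65 in KO relative to FF, given with no test because the genes were chosen with results known. G6pdx made up most of this: without it the oxidative branch stood at 0.37 and 0.01 on the KO arrays and the difference between the branches was 0.13, with opposite signs on the 2 KO arrays (0.37 and -0.11). With the Tkt; Mir3076 probe set in the non-oxidative branch the difference was 0.59. In the authors' deposited table, with G6pdx and without that probe set, it was 0.36. There too G6pdx carried the oxidative rise: H6pd and Pgls were lower in KO, by log2 differences of -0.52 and -0.26, and Pgd was higher, by 0.26.

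**Figure D3:**
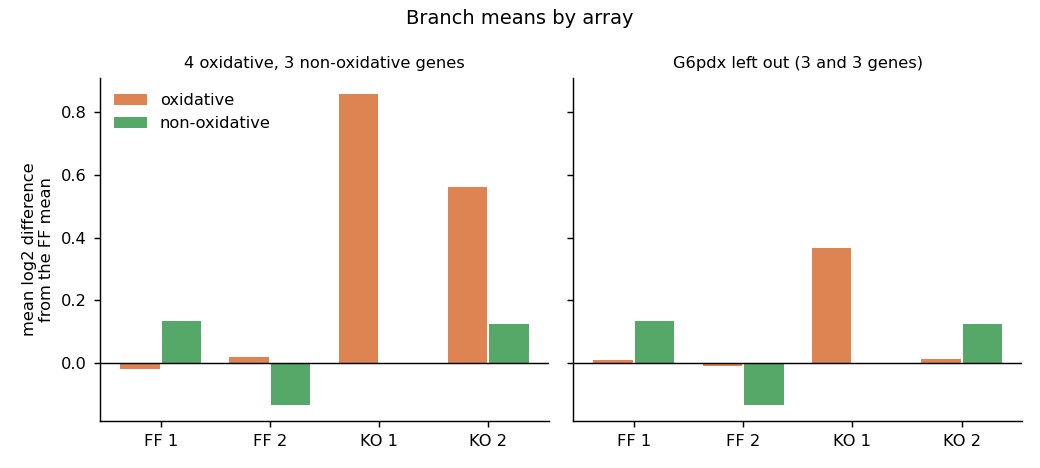
Mean log2 difference from the FF mean for the oxidative (orange) and non-oxidative (green) genes on each array, with G6pdx (left) and without it (right). With G6pdx the oxidative bars reach 0.86 and 0.56 on the KO arrays, and without it 0.37 and 0.01.

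The KO animals differed from each other in some genes of the pathway and in markers of other cells. Against the FF mean, Pgls lay 0.55 higher on KO array 1 and at -0.061 on KO array 2, and Pgd lay at 0.73 and 0.18. G6pdx was 2.33 and 2.20, nearly the same in both. The list of 12 Kupffer cell and macrophage markers, cells known to use the pathway for NADPH oxidase, had a median of 0.95 on KO array 1 and 0.29 on KO array 2. Its summed linear level was 837 and 897 in FF and 1785 and 1170 in KO. By mean 12 of 12 were higher in KO, none was called by limma (6 at an unadjusted p under 0.05), and its defining markers Clec4f and Vsig4 lay well above the background guide on every array. Stellate cell markers summed to 1429 and 1252 in FF and 2636 and 2193 in KO, and 3 of 9, Reln, Col1a1 and Col1a2, rose. Cholangiocyte markers summed to 183 and 275 in FF and 594 and 449 in KO, with 0 of 8 called by limma (4 at an unadjusted p under 0.05). A higher median on KO array 1 than on KO array 2 was not particular to macrophage markers. It was 0.98 and 0.70 for stellate cell markers, 0.70 and 0.25 for cholangiocyte markers and 0.38 and 0.22 for targets of the transcription factor NRF2. For endothelial and erythroid markers KO array 2 was the higher, at 0.12 and 0.18 and at 0.11 and 0.21. The sums of endothelial, erythroid, neutrophil and lymphocyte markers ranged from 1224 to 1336, 181 to 188, 31.5 to 36.5 and 68.5 to 68.9 in FF and from 1409 to 1426, 207 to 217, 33.9 to 45.9 and 57.7 to 73.8 in KO, with no called gene in limma (3, 1, 1 and 0 at an unadjusted p under 0.05). Of 6 neutrophil markers 5, S100a8 and S100a9 among them, lay below the background guide on every array. So did 3 of 5 erythroid, 2 of 9 lymphocyte and 2 of 8 cholangiocyte markers. Of 9 proliferation markers, whose cells need ribose for nucleotides, 1 fell, Tk1 for thymidine kinase at -1.22 ± 0.15 (limma adjusted p = 0.0277), and 0 rose. The KO mean was the higher one for 7 of these genes, with a list median of 0.22 and 5 at an unadjusted p under 0.05. The part of these cells in the values of the pathway genes was not tested. More cells of a type and more RNA per cell cannot be told apart in whole liver.

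**Figure D4:**
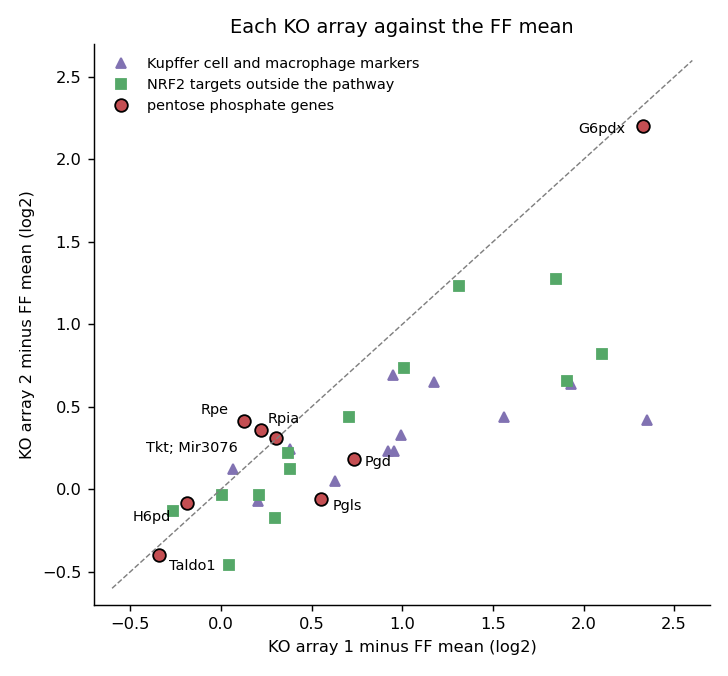
Log2 difference of KO array 1 (horizontal) and KO array 2 (vertical) from the FF mean for the pentose phosphate genes (red circles), macrophage markers (purple triangles) and NRF2 targets (green squares), with a dashed line where both arrays are equal. G6pdx lies close to the line at 2.33 and 2.20, while Pgd and Pgls lie below it, with most macrophage markers and most NRF2 targets.

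No close relative of the pathway genes, and no enzyme that uses its ribose phosphate, passed the test. Of 15 measured genes, 0 were called by limma in either direction (3 at an unadjusted p under 0.05), and their median was -0.01. The largest differences were those of Prps2, a synthetase that turns ribose 5-phosphate into phosphoribosyl pyrophosphate, at 0.72 ± 0.16 (limma adjusted p = 0.0972), and of Dcxr, a xylulose reductase, at 0.66 ± 0.15 (limma adjusted p = 0.115). The relatives G6pd2, an intronless copy of G6pdx, Tktl1 and Tktl2 lay below the background guide on all arrays, at 1.65 to 2.44. Tigar, whose product lowers fructose 2,6-bisphosphate and which was picked here after its value was seen, measured 4.52 and 4.76 in FF and 4.55 and 4.83 in KO, a difference of 0.05 ± 0.15.

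Among 14 other genes listed around the supply of NADPH, not all of which make it themselves, 0 were called by limma (4 at an unadjusted p under 0.05). Their median was 0.04. Me2, a mitochondrial malic enzyme, had a log2 difference of 0.69 ± 0.13 (limma adjusted p = 0.0733). Nadk2, the mitochondrial NAD kinase, which makes NADP, had one of -0.59 ± 0.13 (limma adjusted p = 0.0967). Of 15 genes listed around the use of NADPH, not all of which depend on it, 0 were called, with a median of 0.14. At an unadjusted limma p under 0.05 there were 9, against 17.0% of all genes. The largest differences there were those of Nqo1, a quinone reductase, at 1.56 ± 0.29 (limma adjusted p = 0.0720), and Cbr1, a carbonyl reductase, at 1.22 ± 0.23 (limma adjusted p = 0.0697). Nqo1 measured 3.46 and 4.19 in FF and 5.67 and 5.10 in KO, without overlap but with a wide spread in both groups.

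Around glucose 6-phosphate, the substrate of G6pdx, 6 of 25 genes had an unadjusted limma p under 0.05, against 17.0% of all genes. After adjustment 3 fell, 0 rose and 22 did not pass, with a list median of 0.14. Among them, Gckr fell from 8.06 and 7.92 to 6.87 and 6.88, by 1.12 ± 0.12 on the log2 scale (limma adjusted p = 0.0198). Pfkfb1, the liver form of the enzyme that sets fructose 2,6-bisphosphate, fell by 1.06 ± 0.14 (limma adjusted p = 0.0319).

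Of 13 regulators of the pathway, 6 had an unadjusted limma p under 0.05, against 17.0% of all genes. After adjustment 2 rose, 0 fell and 11 did not pass, with a median of -0.04. Nfe2l2, which encodes NRF2, a transcription factor known to activate G6pdx, Pgd, Tkt and Taldo1, measured 7.64 and 7.33 in FF and 8.91 and 8.77 in KO, a rise of 1.35 ± 0.15 (limma adjusted p = 0.0214). Trp53, which encodes p53, a protein reported to inhibit glucose 6-phosphate dehydrogenase, rose by 0.85 ± 0.12 (limma adjusted p = 0.0362). Myc and Srebf1, picked after their values were seen, were lower in KO and not called. Their differences were -1.73 ± 0.46 and -1.32 ± 0.25 (limma adjusted p = 0.143 and 0.0720). The part of any regulator in the rise of G6pdx was not tested. Of 13 measured NRF2 targets outside the pathway, 6 had an unadjusted limma p under 0.05. After adjustment 2 rose, 0 fell and 11 did not pass, with a median of 0.29. Those that rose were Ephx1, an epoxide hydrolase, by 1.27 ± 0.13 (limma adjusted p = 0.0168) and Srxn1, which repairs peroxiredoxins, by 0.87 ± 0.14 (limma adjusted p = 0.0487). Gclc and Gclm, the subunits of the enzyme that starts glutathione synthesis, were picked after their values were seen and had differences of 0.09 ± 0.13 and -0.01 ± 0.12. Of the 11 lipogenic targets of ChREBP and SREBP1, a programme whose NADPH demand the pathway serves, 8 had an unadjusted limma p under 0.05. After adjustment 2 fell and 0 rose, with a list median of -0.36. Those that fell were Acacb, an acetyl-CoA carboxylase, at -1.39 ± 0.18, and Scd1, a desaturase, at -1.16 ± 0.15 (limma adjusted p = 0.0307 for each). Fasn, which is also among the users of NADPH above, was not called, at -0.32 ± 0.12 (limma adjusted p = 0.272). The KO mean was the higher one for 3 of the 11. Demand for NADPH was not measured.

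**Figure D5:**
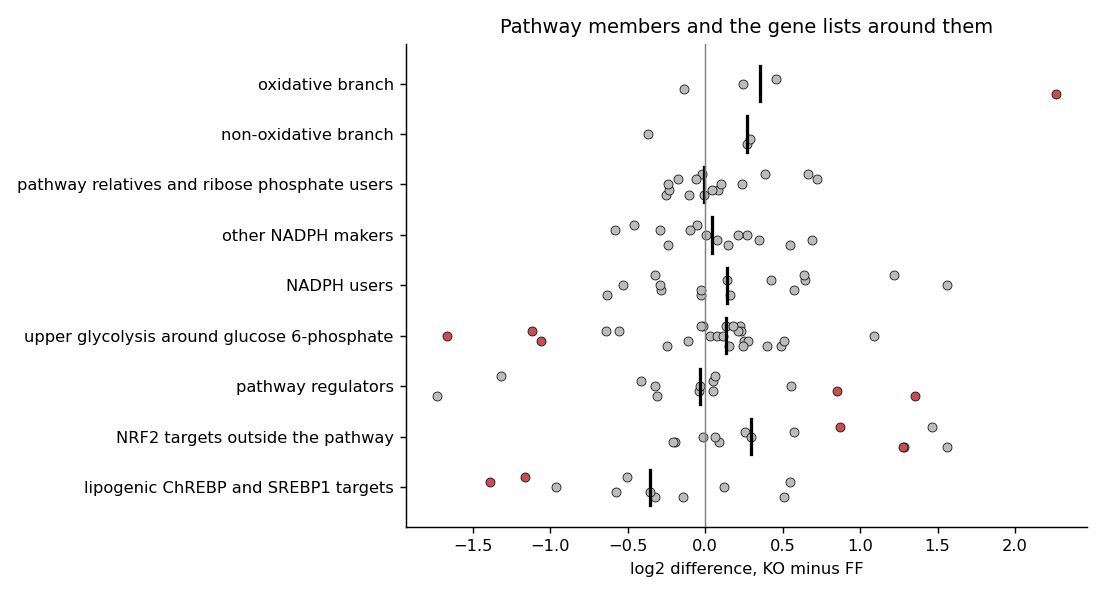
Log2 difference between KO and FF of each measured gene (points), by gene list, with a black line at each list's median. Red points passed a limma adjusted p of 0.05 and grey ones did not. G6pdx at 2.27 is the rightmost point, and the 3 red points of upper glycolysis, Gckr and Pfkfb1 among them, lie to the left of 0.

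Genes next to G6pdx on chromosome X, picked by position, were not called. Ikbkg, which encodes the regulatory subunit of the IKK complex, overlaps G6pdx from 74393233 to 74456792. It measured 5.24 and 5.65 in FF and 5.14 and 5.28 in KO, a difference of -0.24 ± 0.17 with overlapping groups. On the side of lower coordinates, Fam3a, Lage3 and Plxna3 had differences of 0.16 ± 0.21, -0.40 ± 0.15 and 0.48 ± 0.16, with limma adjusted p of 0.770, 0.276 and 0.214. Over the 4 arrays, the genes whose profiles lay nearest to that of G6pdx, each centred on its own mean, were Slc6a8, Ccng1 and Prrg4, at Euclidean distances of 0.10, 0.13 and 0.18 log2 units. Slc6a8, a creatine transporter gene that lies on chromosome X 726980 bases from G6pdx, went from 5.09 and 5.42 to 7.54 and 7.43. Ccng1, which encodes cyclin G1, went from 7.28 and 7.49 to 9.56 and 9.54, and Prrg4 from 3.15 and 3.11 to 5.53 and 5.36. Ccng1 and Prrg4 lie on other chromosomes. These profiles rest on 4 points that mostly reflect the step between the groups.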

How the data were processed

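Liver RNA of 2 FF and 2 KO mice was measured on expression arrays. Per the submitters' processing notes, the authors summarised the arrays with RMA in Affymetrix Expression Console (version not given in the sources used here), and the values they deposited are on the log2 scale. RMA equalises the distributions of the arrays, so a change in total RNA cannot be seen. The authors' second deposited table gives log2 averages and a signed linear fold change, per the file headers. It supplied the symbols and a comparison. For 4216 genes with a mean above 6, log2 differences of both tables correlated at 0.927, and at 0.658 over all genes.

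Genes with several probe sets used the one with the highest mean over the 4 arrays. KO was compared with FF by limma 3.58.1 in R 4.3.3 (lmFit, eBayes, no block) over 29432 genes with 1 symbol, with Benjamini-Hochberg adjustment over all of them and a threshold of 0.05. The moderated test had 5.79 degrees of freedom, 3.79 of them from the prior. Errors after ± are limma standard errors. The fit was tested on simulated data. P-values rest on the spread between 2 arrays a group.

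Members and lists were chosen with earlier results of these data known. Named were all members, Polr2m, of each list around the pathway the 3 largest called rises and falls or, without a call, its 2 largest differences, called marker genes, and the 3 profiles nearest to G6pdx. One gene that this rule names is not reported here. Others are said to be picked by value or position. Coordinates and promoters come from RefSeq for GRCm38.p6, in which 25692 of the symbols tested were found. Alternatives were a replicate block, other variance models, centring, cyclic loess, a filter on dim genes, averaged or all probe sets, an adjusted p of 0.1, an ordinary 2-sample test, the authors' table and each array left out. Added after the data were seen were the branches without G6pdx or with Tkt; Mir3076.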

Additional observations from a re-analysis of the deposited data

How the results depend on the processing

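With all arrays, 8 of 10 alternatives kept the call of G6pdx. Only centring and cyclic loess could move its log2 difference, to 2.29 and 2.20, since the others leave its group means unchanged. The averaged probe sets and the added Tkt; Mir3076 set are also near copies of the main fit. The call of G6pdx was lost with the replicate block (adjusted p = 0.0610) and with the ordinary 2-sample test (adjusted p = 0.339), where the count of members called fell from 1 to 0. With each array left out, that count was also 0 and limma called 0 genes in either direction (3364 to 3958 before adjustment at 0.05). A lone array of a group is then assumed to vary like those of the other group. No member was called lower under any alternative (limma gave 1 to 3 at an unadjusted p under 0.05 in either direction). The ordinary test gave 3391 genes at an unadjusted p under 0.05, counted in either direction. Genes called higher numbered 293, against 17 with the replicate block, 22 with all probe sets and 0 with the ordinary test. They numbered 575 with a robust variance trend, 476 after centring, 501 without the dimmer genes and 752 at an adjusted p under 0.1. Genes called lower numbered 229, against 13, 20, 1, 400, 302, 349 and 483 in the same order. Same-numbered arrays of the groups did not deviate together (correlation -0.0064), so the block is given as an alternative alone.

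The branch difference of 0.65 was 0.36 in the authors' table, where G6pdx was kept. In the array values it was 0.13 without G6pdx, and with G6pdx it ran from 0.44 to 0.86 with an array left out. Pgls was 0.25, against -0.26 in the authors' table and -0.061 to 0.55 with an array left out. Polr2m fell by 1.10, and lost its call with the block (adjusted p = 0.104), all probe sets (0.0859) and the ordinary test (0.339). It was -0.93 in the authors' table and ran from -1.19 to -1.01 with an array left out. Depth does not apply to arrays; Rpia, with the lowest signal of the members, lay nearest to the background guide.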
